A study of Mus musculus with 24 samples.

Results

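The genes described here are 10 regulators known as maternal factors or linked to the start of transcription in the mouse embryo: *Dppa2*, *Dppa4*, *Nfya*, *Nfyb*, *Nfyc*, *Ctcf*, *Yy1*, *Trim24*, *Nobox* and *Figla*. They were chosen by name, with no threshold on a measured value but with earlier results of these data known, and were matched to Ensembl gene identifiers, 10 of 55471 annotated genes. Only their RNA is analysed here, and that of *Dppa4* and *Yy1* was low in the MII oocytes of these data, at 3 to 13 and 14 to 24 counts per input. RNA was measured by SLIM-seq, a low-input sequencing of RNA pulled down with an antibody against m6A (IP) beside RNA without the pull-down (input), taken by the study's account from the same batches of RNA. MII oocytes, late 1-cell embryos (L1C) and late 2-cell embryos (L2C) gave 3 IP and 3 input libraries each. A separate experiment compared L2C embryos injected as zygotes with Cas13d mRNA and 3 crRNAs against *Ythdc1*, a nuclear reader of m6A (KD, 3 libraries), with embryos injected with Cas13d mRNA alone (Ctrl, labelled NC, 3 libraries). Every embryo and oocyte came from superovulated B6D2F1 females, a cross of C57BL/6J and DBA/2N and the labels name no genetic change. Ctrl embryos carried Cas13d without a crRNA, so an effect of crRNAs in general cannot be told apart from the effect on *Ythdc1*. Replicates are separate samples by their labels, which do not say whether they came from separate pools of embryos, so p values measure the spread between these samples.

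After fertilisation the embryo runs on maternal RNA, which is degraded while the zygotic genome is switched on in a minor and then a major wave, the major wave falling in the 2-cell embryo. DPPA2 and DPPA4 bind DNA as a pair and act upstream of *Dux* and the *Zscan4* genes. NF-Y, made of the subunits NFYA, NFYB and NFYC, binds CCAAT boxes and opens chromatin. CTCF and YY1 are zinc finger proteins that hold chromatin loops, TRIM24 is a chromatin reader of the TIF1 family, and NOBOX (a homeodomain protein) and FIGLA (a basic helix-loop-helix protein) drive oocyte genes such as those of the zona pellucida. m6A is deposited on RNA mostly within the sequence GGACU and its relatives.

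SLIM-seq libraries held 11107421 to 39739950 estimated counts, and KD and Ctrl libraries 3276715 to 5463868 counts in the merged count table, which holds 25739 genes and ends on chromosome 7. For *Nfyc*, *Trim24*, *Nobox* and *Figla* that table gave 3 KD against 3 Ctrl libraries, and for the other 6 genes the whole-annotation counts gave 2 KD against 3 Ctrl, because the file of KD replicate 3 stops at the same gene. *Ythdc1* itself was at 523, 541 and 519 CPM (counts scaled to a common library size) in the KD libraries and at 1080.2, 1098 and 994 CPM in Ctrl. It fell by 1.00 ± 0.06 (log2 ± SE, adjusted p = 1.3e-10), and no KD library overlapped a Ctrl library. The summed level of 8 oocyte markers was 9234 to 10862 CPM in MII inputs and 711 to 739.7 CPM in L2C inputs, and that of 6 late 2-cell markers was 7.55 to 9.54 CPM and 421 to 601 CPM. Of 10 cumulus and granulosa cell markers, *Ptx3* was at 0 in every MII input, and the sum was 60.1 to 69.5 CPM in MII inputs and 8.16 to 11.6 CPM in L2C inputs, with *Cyp19a1* the highest at MII (43.0 CPM). In pooled samples fewer cells of a type and less RNA per cell cannot be told apart, and CPM is a share of a library, not an amount per embryo. By the study's account the RNA-seq libraries were primed with oligo-dT, which pairs with the poly(A) tail of RNA. Between stages, a change of tail length therefore cannot be told apart from a change in the amount of RNA.

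The first comparison asked how the RNA of the regulators changed from the oocyte to the 2-cell embryo. From MII to L2C, 6 of the 10 rose (*Dppa2*, *Dppa4*, *Nfyb*, *Ctcf*, *Yy1*, *Trim24*) and 4 fell (*Nfya*, *Nfyc*, *Nobox*, *Figla*) in the quasi-likelihood test of edgeR with Benjamini-Hochberg adjustment over 19903 genes. Of all genes tested, 47.5% were called higher and 37.1% lower in this comparison, so a call by itself was common. The median log2 change was 1.06 over the 10 regulators and 0.40 over all genes tested. From MII to L1C 4 rose and 4 fell, beside 31.9% and 24.3% of all genes, and from L1C to L2C 6 rose and 2 fell, beside 44.1% and 38.8%. From MII to L2C the sizes ran from 1.34-fold (*Ctcf*) to 468-fold (*Dppa4*), and each gene is given below in CPM of the 9 inputs, scaled together by TMM.

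*Dppa4* (chr16:48283733-48294237, plus strand, GRCm38) was the gene with the largest rise among the 10. It held only 9, 3 and 13 counts in the MII inputs, at 0.388, 0.150 and 0.733 CPM, and was at 4.02, 3.11 and 3.67 CPM at L1C and 184, 177 and 225 CPM at L2C. The 3 stages did not overlap. The rise was 3.11 ± 0.32 (log2) from MII to L1C (adjusted p = 2.0e-06) and 5.76 ± 0.22 from L1C to L2C (adjusted p = 1.6e-11, 54.1-fold).

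*Dppa2* lies beside it (chr16:48303908-48319723, plus strand) and encodes its partner. Its inputs held 12.8, 12.8 and 11.7 CPM at MII, 41.9, 29.5 and 31.0 CPM at L1C and 163, 116 and 157 CPM at L2C. Each stage was above the one before in every library, by 1.46 ± 0.17 (adjusted p = 7.6e-06) and then by 2.09 ± 0.17 (adjusted p = 2.7e-08). Per kb of annotated exon, MII inputs held 5.07 ± 0.26 CPM of *Dppa2* (mean ± SD, n = 3) against 0.255 ± 0.176 CPM of *Dppa4*, and L2C inputs 59.4 ± 10.5 against 117 ± 15.6. The order of the partners therefore differed between the oocyte and the 2-cell embryo, with no overlap of their ranges at either stage.

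The 3 subunits of NF-Y did not move together. *Nfyb* (chr10:82748701-82764144, minus strand), which encodes one of the histone-fold subunits, was at 25.2, 26.3 and 26.7 CPM at MII, 17.4, 11.9 and 12.5 CPM at L1C and 88.3, 69.1 and 95.6 CPM at L2C. It fell by 0.90 on the log2 scale (SE 0.17, adjusted p = 0.00049) and then rose by 2.59 ± 0.17 (adjusted p = 3.9e-09). The L2C libraries were all above the MII libraries, and the L1C libraries all below them.

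*Nfya* (chr17:48386885-48409906, minus strand), the subunit that contacts the CCAAT box, was at 113, 99.7 and 96.4 CPM at MII, 79.4, 81.2 and 97.2 CPM at L1C and 65.2, 89.0 and 67.0 CPM at L2C. Neighbouring stages overlapped, with values of -0.26 ± 0.14 (adjusted p = 0.13) and -0.22 ± 0.14 (adjusted p = 0.17), and only MII and L2C were apart, by -0.49 ± 0.14 (adjusted p = 0.0060). *Nfyc* (chr4:120757438-120831572, minus strand), the other histone-fold subunit, was at 111, 104 and 113 CPM at MII, 69.2, 69.0 and 87.9 CPM at L1C and 71.9, 80.1 and 75.9 CPM at L2C. It fell by 0.54 on the log2 scale from MII to L1C (SE 0.13, adjusted p = 0.0023), and L2C differed from L1C by 0.01 ± 0.12 (adjusted p = 0.93). Its span holds *Mir30c-1*, *Mir30e* and *Mir30f*, whose reads cannot be told apart from its own in counts over whole spans. Per kb of exon, *Nfyb* went from 5.14 ± 0.15 CPM at MII to 16.6 ± 2.71 at L2C, *Nfya* from 14.1 ± 1.24 to 10.1 ± 1.81 and *Nfyc* from 37.2 ± 1.61 to 25.8 ± 1.39. The order of the subunits depends on the length used, since the counts take in introns. On the deposited TPM, which divide by the whole span, the MII inputs held 35.7 ± 3.92 for *Nfya*, 13.5 ± 0.119 for *Nfyb* and 11.7 ± 0.55 for *Nfyc*, and the L2C inputs 15.3 ± 2.4, 26.4 ± 4.66 and 4.87 ± 0.124. *Nfyc* was thus the highest of the 3 per kb of exon and the lowest on TPM at both stages, while the directions of change from MII to L2C were the same on both scales.

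Of the loop proteins and TRIM24, *Yy1* had the largest rise from MII to L2C. *Yy1* (chr12:108792973-108820148, plus strand) was low in the oocyte, with 24, 14 and 14 counts, or 1.03, 0.699 and 0.789 CPM, and was at 1.27, 0.743 and 1.13 CPM at L1C and 10.4, 10.1 and 11.1 CPM at L2C. MII and L1C overlapped (0.31 ± 0.29, adjusted p = 0.39), and L2C was above L1C by 3.32 ± 0.25 (adjusted p = 1.4e-08, 9.98-fold). *Ctcf* (chr8:105636568-105682922, plus strand) was at 32.5, 31.5 and 27.7 CPM at MII, 22.0, 21.9 and 23.8 CPM at L1C and 43.1, 37.1 and 42.3 CPM at L2C. It fell by 0.44 on the log2 scale (SE 0.13, adjusted p = 0.012) and then rose by 0.86 ± 0.13 (adjusted p = 3.2e-05), a pattern with its lowest point at L1C that *Nfyb* had too. The span of *Ctcf* overlaps *Agrp*, *Gm5914* and *Gm5915*, which can share reads with it.

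*Trim24* (chr6:37870811-37966296, plus strand) was at 6.12, 6.69 and 5.80 CPM at MII, 16.7, 14.4 and 17.1 CPM at L1C and 23.8, 19.9 and 21.9 CPM at L2C. Its larger step came before the 2-cell stage, 1.37 ± 0.16 from MII to L1C (adjusted p = 7.3e-06). The step from L1C to L2C was 0.44 ± 0.15 (adjusted p = 0.015), and this call was lost when the fit took in all 18 libraries (0.20), only the groups compared (0.36) or genes of low counts too (0.43), and when L1C input replicate 2 (0.35) or L2C input replicate 1 (0.37) was left out. The gain of *Ctcf* from MII to L2C, 0.42 ± 0.13 (adjusted p = 0.0089), was lost with the 18-library fit (0.09), with genes of low counts kept (0.35) and without MII input replicate 3 (0.33). The 18-library fit, chosen after seeing the data, moved the median from 0.40 over the 19903 genes to 0.07 over those of them that it also held, and from 0.17 to -0.06 from L1C to L2C. In it *Nfya* and *Nfyc* at L2C against MII were at -0.81 and -0.85 and kept their calls, and both were also called lower from L1C to L2C, at -0.46 and -0.23. For *Nfyc* that turns the sign of the step. Without L2C input replicate 2 the step of *Nfya* was called as well, at -0.38.

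**Figure D1:**
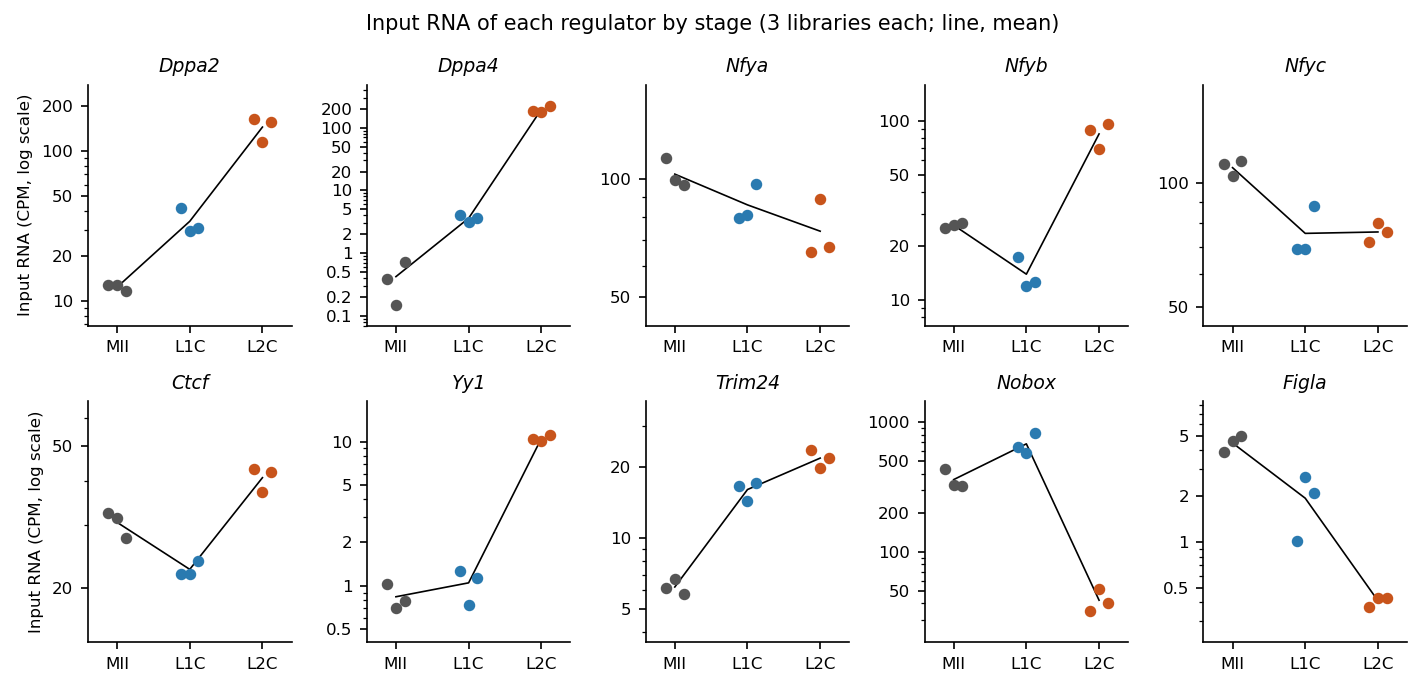
CPM of each of the 10 regulators (log axis, a different range in each panel) in the 3 input libraries of MII oocytes, L1C and L2C embryos, 1 point per library and a line through the stage means. *Dppa2* and *Dppa4* climb at each step, *Nfyb* and *Ctcf* dip at L1C, and *Nobox* and *Figla* fall the most from MII to L2C.

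The oocyte factors *Nobox* and *Figla* had the largest falls from MII to L2C among the 10 but took different courses. *Nobox* (chr6:43303674-43309554, minus strand) was at 434, 326 and 322 CPM at MII and 641, 574 and 829.7 CPM at L1C, the highest RNA among the 10 per length, and fell to 35.2, 51.4 and 40.5 CPM at L2C. Every L1C library was above every MII library (0.92 ± 0.17, adjusted p = 0.00051). The drop from L1C to L2C was -4.01 ± 0.20 (adjusted p = 1.5e-10, 16.1-fold).

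*Figla* (chr6:86016171-86020996, plus strand) was at 3.88, 4.59 and 4.96 CPM at MII, 1.02, 2.69 and 2.10 CPM at L1C and 0.372, 0.428 and 0.430 CPM at L2C, the last from 11, 9 and 17 counts. It fell at each step without overlap between stages, by 1.21 (SE 0.32, adjusted p = 0.0051) and by 2.22 (SE 0.37, adjusted p = 7.1e-05) on the log2 scale. FIGLA binds E-boxes, and as these genes of the oocyte programme both fell, their promoters are shown with E-boxes (CANNTG, which reads the same on both strands) in capitals. They run from 250 bases before to 50 bases after the start of the transcript in RefSeq on GRCm38, at chr6:43309505-43309804 (minus strand) and chr6:86016941-86017240 (plus strand).
Nobox: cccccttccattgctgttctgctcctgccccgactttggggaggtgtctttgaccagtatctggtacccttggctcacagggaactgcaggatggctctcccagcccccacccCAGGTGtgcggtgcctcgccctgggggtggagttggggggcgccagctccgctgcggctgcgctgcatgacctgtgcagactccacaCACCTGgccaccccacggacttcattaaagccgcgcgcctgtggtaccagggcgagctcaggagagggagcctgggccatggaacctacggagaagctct
Figla: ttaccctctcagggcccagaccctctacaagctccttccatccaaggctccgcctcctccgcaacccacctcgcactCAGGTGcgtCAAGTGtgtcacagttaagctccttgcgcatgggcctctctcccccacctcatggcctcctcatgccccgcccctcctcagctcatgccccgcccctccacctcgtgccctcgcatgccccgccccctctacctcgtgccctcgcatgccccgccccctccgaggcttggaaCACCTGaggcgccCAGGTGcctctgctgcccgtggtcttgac
The window of *Nobox* held 2 E-boxes and that of *Figla* 4. Of 32851 promoters of this length 72.3% held at least 1, and among 13 promoters of 8 of the regulators 6 did. CCAAT, the letters read by NF-Y, was in 4 of the 13 and in 37.4% of all promoters on either strand. ATGGC, the core of YY1 sites, was in 7 of the 13 and in 40.5%. TAATTG, the core of NOBOX sites, was in 1 of the 13 and in 8.00% of all promoters. *Dppa2* and *Dppa4* had no entry among these promoters.

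Compared per kb of exon, the order of the 10 changed with stage. In MII inputs *Nobox* was highest (179 ± 31.7 CPM per kb, n = 3), then *Nfyc* and *Nfya*, with *Yy1* lowest (0.131 ± 0.027). The 4 genes *Ctcf*, *Figla*, *Nfyb* and *Dppa2* were between 5.07 and 6.29 CPM per kb at MII and overlapped from neighbour to neighbour, as did *Dppa4* and *Yy1*. In L2C inputs *Dppa4* (117) and *Dppa2* (59.4) were highest and apart from each other. *Nfyc*, *Nobox* and *Nfyb* followed, overlapping only from neighbour to neighbour, and *Figla* was last (0.490 ± 0.0399). The deposited TPM values divide by the whole span with introns, and much of the order changed on them. At MII *Nfyb* took place 3 in place of 6, *Ctcf* 7 in place of 4, *Nfyc* 4 in place of 2 and *Nfya* 2 in place of 3, and at L2C *Nfyc* took place 6 in place of 3. *Nobox* stayed first at MII and L1C, and *Dppa4* and *Dppa2* first and second at L2C. Counts over exons in Ctrl L2C embryos gave 3.15 CPM for *Nobox* and 153 CPM for *Yy1*. The L2C inputs held 42.4 and 10.5 CPM, so the places of these 2 genes at L2C are uncertain.

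The genes most like each regulator over the 18 libraries, IP included, were found by the distance between centred log2(CPM + 0.5) profiles among 10136 protein-coding genes. The nearest to *Nfyb* was *Bod1l* (distance 0.453), to *Nfyc* *Cnbp* (0.461), to *Nfya* *D7Ertd443e* (0.556) and to *Ctcf* *Acadm* (0.790). The second nearest were *Ubn2* (0.954), *Pdpk1* (0.591), *Git2* (0.665) and *Ptpn2* (0.814). *Trim24* had *Ranbp1* (0.983) and *Foxm1* (1.03), *Dppa2* had *Nlk* (1.01) and *Etf1* (1.03), and *Figla* had *Rnf165* (0.944) and *Zfp64* (0.979). *Dppa4* had the largest distances, to *AC133103.1* (1.61) and *Mak16* (1.66). For *Yy1* they were *Dhx9* (1.34) and *Ddit4l* (1.42), and for *Nobox* *Pstpip1* (1.23) and *Nudt16l1* (1.31). No other regulator was among these neighbours, but *Figla* (mean 2.28 CPM) could not be one, since a neighbour needed a mean of at least 5 CPM.

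The second comparison asked which of these RNAs the m6A antibody enriched. In MII oocytes 5 were higher in IP than in input (*Dppa2*, *Dppa4*, *Nfyb*, *Ctcf*, *Trim24*) and 2 lower (*Nfya*, *Figla*), beside 17.7% and 21.0% of 21950 genes. At L1C 4 were higher (*Nfyb*, *Ctcf*, *Yy1*, *Trim24*) and 2 lower (*Nfya*, *Nobox*), beside 15.8% and 18.2%, and at L2C the same 4 were higher and *Nobox* alone was lower, beside 22.0% and 22.0%. *Nfyb*, *Ctcf* and *Trim24* were thus called higher at all 3 stages, and *Nfyc* was called at none. A change of this ratio between stages was tested as an interaction, and 2 of the 10 were lower at L1C than at MII (4.21% of all genes) and none higher (3.13%). From L1C to L2C 1 was higher (5.00% of all genes) and none lower (4.47%), and from MII to L2C 1 was higher and 4 lower (11.1% and 9.21%). Scaling to library size alone moves the median log2 IP/input of all genes from 0.00 to 0.20 at MII, from 0.07 to 0.37 at L1C and from 0.09 to 0.34 at L2C, so ratios are relative to these medians. The CPM values of this comparison are scaled over all 18 libraries and so differ from those of the inputs alone.

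**Figure D2:**
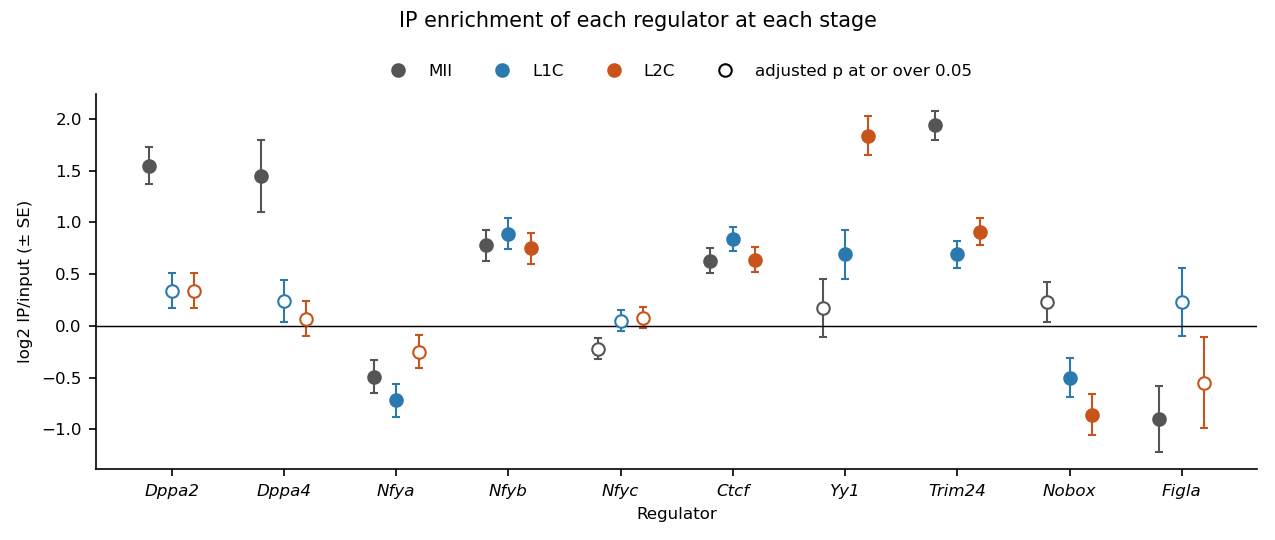
Log2 IP/input with its SE for each regulator at MII, L1C and L2C, filled where the adjusted p of the edgeR test was under 0.05 and open otherwise. *Dppa2*, *Dppa4* and *Trim24* are highest at MII, *Yy1* is highest at L2C, and *Nfyb* and *Ctcf* stay between 0.63 and 0.89.

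*Trim24* had the highest ratio in the oocyte. Its MII inputs held 7.49, 8.03 and 6.91 CPM and its MII IPs 28.8, 25.7 and 31.4 CPM, with no overlap, a log2 IP/input of 1.94 ± 0.14 (adjusted p = 2.3e-09). At L1C the inputs had risen to 19.2, 16.4 and 19.3 CPM while the IPs held 28.8, 32.1 and 27.6 CPM. The ratio was then 0.69 ± 0.13 (adjusted p = 0.00037), lower than at MII by 1.25 (SE 0.19, adjusted p = 0.00029), and at L2C it was 0.91 ± 0.13 (adjusted p = 1.5e-05), lower than at MII by 1.03 (SE 0.19, adjusted p = 0.00062). At each stage the lowest IP was above the highest input.

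*Dppa2* was also higher in IP at MII, but was called at neither later stage in the reported fit. Its IPs held 44.4, 46.8 and 39.9 CPM at MII against inputs of 15.6, 15.3 and 13.9 CPM, a ratio of 1.55 ± 0.18 (adjusted p = 1.1e-06). At L1C the IPs held 49.1, 50.6 and 47.3 CPM against 48.0, 33.5 and 34.8 CPM, and at L2C 147, 227 and 159 CPM against 158, 109.9 and 152 CPM. IP and input overlapped at both later stages (0.34 ± 0.17 at each, adjusted p = 0.14 and 0.11). Both were called higher with library size alone (0.64 and 0.60), a scaling that also raises the median of all genes, and that at L1C without L1C input replicate 1 (0.52). The ratio was lower than at MII by 1.21 at L1C (SE 0.25, adjusted p = 0.0038) and by 1.21 at L2C (SE 0.24, adjusted p = 0.0015). *Dppa4* rested on few reads at MII, 27, 18 and 27 counts in the IPs against 9, 3 and 13 in the inputs, with a ratio of 1.45 ± 0.35 (adjusted p = 0.0026). At L1C its ratio was 0.24 ± 0.20 (adjusted p = 0.39), called higher only with library size alone (0.54). The change from MII, -1.21 ± 0.41, did not pass the test (adjusted p = 0.082), though it did under DESeq2 (-1.25), with genes of low counts kept (-1.22) and without MII input replicate 3 (-1.77) or MII IP replicate 2 (-1.44). At L2C its ratio was 0.07 ± 0.17 (adjusted p = 0.76), lower than at MII by 1.38 (SE 0.39, adjusted p = 0.016), a call that was lost without MII input replicate 2 (-1.0).

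*Yy1* went the other way. At MII its IPs (1.20, 0.986 and 1.29 CPM) and inputs (1.27, 0.839 and 0.939 CPM) overlapped, with a ratio of 0.17 ± 0.28 (adjusted p = 0.70). At L2C the IPs held 37.5, 33.2 and 37.6 CPM against 10.0, 9.56 and 10.7 CPM in the inputs, 1.84 ± 0.19 (adjusted p = 3.9e-07). The ratio at L2C was above that at MII by 1.66 ± 0.34 (adjusted p = 0.0015) and was called in each other fit and with any 1 library left out. The L1C value, 0.69 ± 0.24 (adjusted p = 0.032), came from overlapping libraries (2.00, 2.45 and 1.39 CPM against 1.45, 0.844 and 1.27 CPM). That call was lost without L1C input replicate 2, L1C input replicate 3, L1C IP replicate 1 or L1C IP replicate 2 (0.48 to 0.90 over the libraries left out), with a replicate block, with genes of low counts kept and with only the groups compared. The step from L1C to L2C, 1.14 ± 0.31 (adjusted p = 0.025), was lost without L1C input replicate 1, L1C input replicate 3, L1C IP replicate 3, L2C input replicate 2 or L2C IP replicate 3 (0.93 to 1.34), with a replicate block and with only the groups compared.

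For *Nfyb* and *Ctcf* no change of the ratio between stages passed the test. *Nfyb* was at 0.78 ± 0.15, 0.89 ± 0.15 and 0.75 ± 0.15 at MII, L1C and L2C, while its input went from 31.4 ± 0.485 through 15.8 ± 3.57 to 81.2 ± 14.1 CPM (mean ± SD, n = 3). *Ctcf* was at 0.63 ± 0.12, 0.84 ± 0.12 and 0.64 ± 0.12, and at each stage the lowest IP library of both genes was above the highest input. The changes lay between -0.20 and 0.21. In contrast with *Nfyb*, *Nfya* was lower in IP at MII (-0.49 ± 0.16, adjusted p = 0.018) and at L1C (-0.72 ± 0.16, adjusted p = 0.0016), with 63.1, 62.1 and 52.6 CPM in the L1C IPs against 91.0, 92.3 and 109 CPM in the inputs. At MII the call of *Nfya* was lost without input replicate 1, IP replicate 1 or IP replicate 3 (-0.63 to -0.38 over the libraries left out) and with scaling to library size alone (-0.26). *Nfyc* was at -0.22 ± 0.10, 0.05 ± 0.10 and 0.08 ± 0.10, and none of these passed the test (adjusted p = 0.10, 0.75 and 0.55). With library size alone, a scaling that also raises the median of all genes, *Nfyc* was called higher at L1C (0.35) and L2C (0.34).

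*Nobox* had a ratio of 0.23 ± 0.19 at MII (adjusted p = 0.38), -0.50 ± 0.19 at L1C (adjusted p = 0.049) and -0.86 ± 0.20 at L2C (adjusted p = 0.0017). The MII value was called higher with library size alone (0.46). Neither step passed the test of the change, with -0.73 ± 0.27 from MII to L1C (adjusted p = 0.12) and -0.36 ± 0.27 from L1C to L2C (adjusted p = 0.46). The step from MII to L1C was called with genes of low counts kept. The L2C IPs held 25.7, 17.0 and 24.0 CPM, all below the inputs at 34.1, 48.7 and 39.2 CPM, and the ratio at L2C was lower than at MII by 1.09 (SE 0.27, adjusted p = 0.0078). The L1C call was lost without 5 of the 6 libraries of that stage in turn, the exception being input replicate 2, with values from -0.61 to -0.35, and under DESeq2, scaling to library size alone and a replicate block. *Figla* was lower in the MII IPs (3.26, 2.85 and 2.53 CPM) than in the inputs (4.74, 5.51 and 5.90 CPM), by -0.90 ± 0.32 (adjusted p = 0.033). That call was lost without input replicate 2, input replicate 3 or any 1 of the 3 IPs, with values from -1.0 to -0.81, and under DESeq2, scaling to library size alone and a replicate block.

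The sequence GGACT, the DNA form of the most common m6A motif, was counted in the longest coding transcript of each gene in GENCODE M21. Over 21901 genes the median was 1.01 per kb and 87.6% had at least 1. *Nfyc*, whose ratio was not called at any stage in the reported fit, had 5 (2.49 per kb), and *Nfya*, lower in IP at MII and L1C, had 5 (1.35 per kb). *Yy1* had 8 (1.29 per kb), *Nfyb* 3 (1.17 per kb), *Ctcf* 4 (1.06 per kb) and *Nobox* 3 (1.58 per kb), and *Figla* and *Dppa4* had none. *Trim24* and *Dppa2* had the highest ratios at MII. That of *Dppa4* (1.45 ± 0.35, and 1.06 to 2.01 with a library left out) was not apart from that of *Dppa2* (1.55 ± 0.18). The matches of *Trim24* (4, 0.990 per kb) and of *Dppa2* (1, 0.409 per kb) are shown with 8 bases on each side and GGACT in capitals.
Dppa2, match 1: atcagacaGGACTtgtgaaaa
Trim24, match 1: cagggcccGGACTcggagagc
Trim24, match 2: atcagcctGGACTccatcaag
Trim24, match 3: aacccaatGGACTtgtcaacc
Trim24, match 4: tgtttactGGACTttggtttc
They lie on the plus strand of GRCm38 at chr16:48303982-48304002 (exon 1 of *Dppa2*, 5′ UTR) and, in *Trim24*, at chr6:37871207-37871227 (exon 1, coding), chr6:37957615-37957635 (exon 15, coding), chr6:37964730-37964750 (exon 18, coding) and chr6:37965819-37965839 (exon 19, 3′ UTR). A match is a string of letters and not a measured m6A site, since counts over whole genes do not place the mark.

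The third comparison asked how the regulators differed in L2C embryos after knockdown of *Ythdc1*. The crRNAs, which guide Cas13d to the mRNA, are shown because they define the KD group, and each is the reverse complement of the coding sequence of the longest *Ythdc1* transcript in GENCODE M21.
crRNA 1: cctcattctcagtgttgttgccc
crRNA 2: aattcatcatcctgttctggtac
crRNA 3: ctctcagaaccatctggtgtagg
The gene is on the plus strand of GRCm38, so the crRNAs read as its minus strand, and their targets are at chr5:86817026-86817048 (exon 4), chr5:86815667-86815689 (exon 2) and across the junction of exons 3 and 4 between chr5:86816772 and chr5:86816908. Of the 6 regulators counted over the whole annotation, 5 were higher in KD (*Dppa2*, *Dppa4*, *Nfyb*, *Ctcf*, *Yy1*) and none lower, beside 30.5% and 36.4% of 17074 genes. Of the 3 tested in the merged table, *Trim24* was higher and *Nobox* lower, beside 33.5% and 37.4% of 7433 genes. The median log2 change was 0.52 over the first 6 and -0.09 over all genes of that fit.

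*Dppa2* was at 687 and 668 CPM in the 2 KD libraries against 395, 392 and 416 CPM in Ctrl, 0.76 ± 0.07 higher (log2 ± SE, adjusted p = 2.0e-07). *Yy1* was at 255 and 258 CPM against 161, 158 and 139 CPM, 0.74 ± 0.08 higher (adjusted p = 1.8e-06). *Nfyb* was at 366 and 326 CPM against 246, 247 and 216 CPM (0.55 ± 0.09, adjusted p = 4.0e-05). These were the 3 largest rises among the 10, at 1.69-fold, 1.68-fold and 1.46-fold, and no KD library overlapped a Ctrl library. *Dppa4* was at 528 and 559 CPM against 394, 379 and 392 CPM (0.48 ± 0.07, adjusted p = 2.4e-05), and *Ctcf* at 269 and 259 CPM against 216, 211 and 201 CPM (0.33 ± 0.08, adjusted p = 0.0013). *Nfya* was at 77.0 and 76.7 CPM against 80.7, 82.5 and 84.3 CPM, a difference of -0.10 ± 0.09 that did not pass the test (adjusted p = 0.33) although the groups did not overlap.

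Within the merged table, whose CPM are relative to its own genes and not comparable with those above, *Trim24* was at 284, 271 and 285 CPM in KD and 220.2, 201 and 195 CPM in Ctrl (0.45 ± 0.07, adjusted p = 3.1e-05). *Nfyc* was at 111, 108 and 121 CPM against 112, 98.4 and 114 CPM and did not pass the test (0.07 ± 0.09, adjusted p = 0.49). *Nobox* had few reads at this stage, 16, 11 and 11 counts in KD against 40, 56 and 22 in Ctrl, or 3.82, 3.06 and 2.13 CPM against 7.10, 11.2 and 6.37 CPM. It was lower by 1.47 (SE 0.36, adjusted p = 0.0013), the only one of the 9 tested regulators that was called lower. *Figla* had 0 counts in each KD library and 0, 2 and 0 in Ctrl, under a floor of 3 counts (0.549 to 0.916 CPM per library). It did not pass the filter on low counts and so was not tested. Markers moved with the KD as well. In the counts over the whole annotation (2 KD and 3 Ctrl libraries) the summed level of the 8 oocyte markers was 780.2 to 849 CPM in KD against 1552 to 1698 CPM in Ctrl, and that of the 6 late 2-cell markers 266 to 299 CPM against 933 to 980.5 CPM. The part of these differences in the changes of the regulators was not tested. All of these late 2-cell markers are also in the list of DPPA2 and DPPA4 genes described next, and all of the oocyte markers but *Nlrp5* and *Ooep* are in that of NOBOX and FIGLA genes, so the markers and those lists are largely 1 observation.

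**Figure D3:**
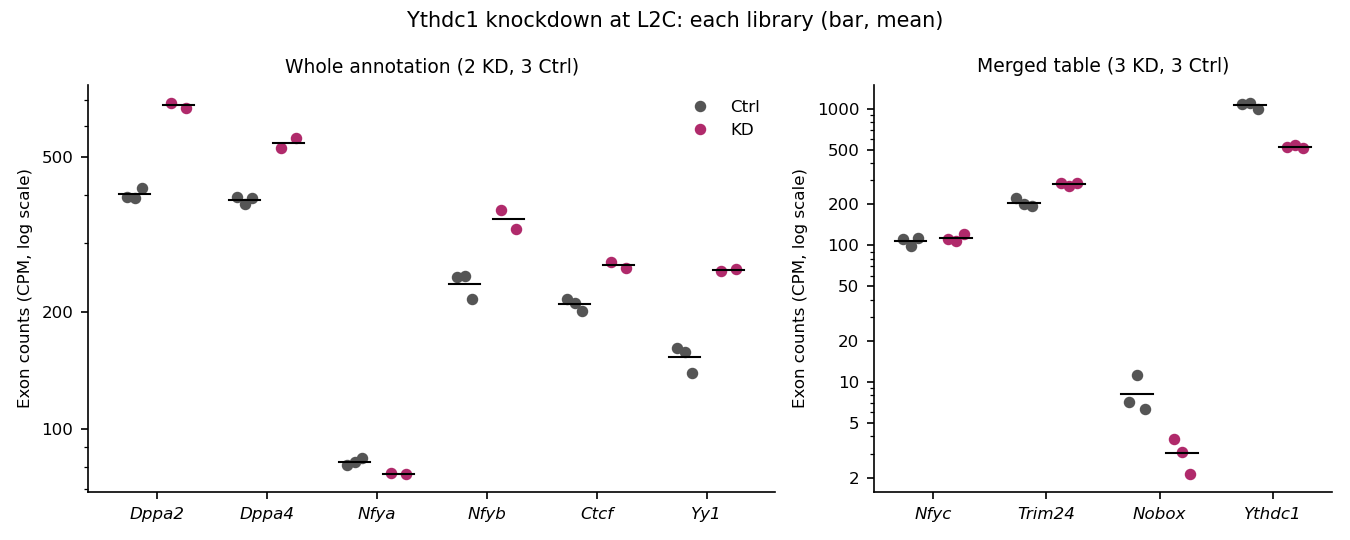
CPM of exon counts (log axis) in each Ctrl and KD library, with a bar at the group mean, for the 6 regulators counted over the whole annotation (left, 2 KD and 3 Ctrl) and for *Nfyc*, *Trim24*, *Nobox* and *Ythdc1* in the merged table (right, 3 and 3). *Dppa2* and *Yy1* are 1.69-fold and 1.68-fold higher in KD, and *Nobox* and *Ythdc1* are lower. *Figla* is not drawn, since 5 of its 6 libraries were at 0.

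Genes related to the regulators by function were taken from 6 lists. Listed as downstream of DPPA2 and DPPA4 were 11 genes known from the 2-cell embryo, so a rise towards L2C was partly set by that choice. Whether the 2 proteins act on each of them was not tested. Of these 11 genes, 8 rose from MII to L1C and none fell, beside 31.9% and 24.3% of all genes. From L1C to L2C 9 rose and 1 fell, beside 44.1% and 38.8% (median log2 change 2.49, against 0.17 over all genes). The one that fell, named after its values were seen, was *Duxf3*, of the *Dux* family of early activators, from 98.9 CPM at L1C to 6.27 CPM at L2C (-3.98 ± 0.20, adjusted p = 2.0e-10), after a rise from 0.367 CPM at MII. *Tdpoz3* (0.247 to 27.4 CPM) and *Tdpoz4* (0.109 to 30.5 CPM) were the 2 with the smallest p. In KD embryos all 8 of these genes held in the table were lower, beside 37.4% of all genes (median -1.84, against -0.06), and both tested beyond it were lower, beside 36.4%, while *Dppa2* and *Dppa4* themselves were higher. *Usp17lc* was at 51.6 CPM in KD and 333 CPM in Ctrl (-2.69 ± 0.09, adjusted p = 3.4e-13), and *Zfp352* at 203 and 784 CPM (-1.95 ± 0.07, adjusted p = 4.2e-13). Most genes of this list belong to families of near-identical copies, so counts can be split between them.

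Of 8 oocyte genes under NOBOX or FIGLA, all 8 were lower at L2C than at MII, beside 37.1% of all genes (median -2.41, against 0.40), among them *Gdf9*, a growth factor of the oocyte (-5.68 ± 0.19, adjusted p = 2.7e-12), and *Mos*, a kinase that holds metaphase II (-5.10 ± 0.19, adjusted p = 8.3e-12). From MII to L1C 6 of them fell and 2 rose (*Zp2*, 0.64 ± 0.15, and *Bmp15*, 0.28 ± 0.11), beside 24.3% and 31.9%. From L1C to L2C 7 fell and 1 rose (*Zp3*, 1.15 ± 0.14), beside 38.8% and 44.1%. In KD 1 of 3 in the table was higher and 1 lower, beside 33.5% and 37.4% of all genes, and 4 of 5 beyond it were lower, beside 36.4% (median -1.26, against -0.09). *Zp1*, a zona pellucida protein, was at 1.14 CPM against 21.7 CPM (-4.23 ± 0.25, adjusted p = 2.6e-09), and *Zp3*, another, was higher (0.48 ± 0.08, adjusted p = 2.1e-05). Of 9 genes listed with the oocyte transcription factors, 1 of which, *Dynll1*, encodes a dynein light chain and no such factor, 3 rose and 6 fell from MII to L2C, beside 47.5% and 37.1% of all genes. *Dynll1* was 1 of the 3 that rose (4.49 ± 0.18, adjusted p = 1.5e-11), as was *Taf4b*, a TFIID subunit (4.27 ± 0.16, adjusted p = 1.0e-11). In KD 1 of 3 in the table was higher, again *Dynll1* (0.35 ± 0.05, adjusted p = 1.1e-05), and 1 lower, beside 33.5% and 37.4% of all genes. Of the 4 tested beyond it 2 were higher and none lower, beside 30.5% and 36.4%.

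Of 20 partners and relatives of CTCF and YY1, 13 rose and 6 fell from MII to L2C, beside 47.5% and 37.1% of all genes (median 1.79, against 0.40). *Yy2*, a relative of *Yy1*, went from 3.63 CPM at L1C to 425 CPM at L2C (6.88 ± 0.25, adjusted p = 8.0e-12) in counts over its whole span. In counts over exons *Yy2* was at 0 CPM in KD and at 0 CPM in Ctrl, which are L2C embryos too, so its level at L2C is uncertain. The cohesin subunit *Smc3* fell by 3.22 (SE 0.14, adjusted p = 4.9e-10) from MII to L1C and rose by 2.42 ± 0.14 from L1C to L2C (adjusted p = 8.2e-10), which left it lower than at MII by 0.81 (SE 0.13, adjusted p = 4.9e-05). In KD 4 of 8 in the table were higher and 1 lower, beside 33.5% and 37.4% of all genes (median 0.32, against -0.06), and 5 of 11 beyond it were higher and 3 lower, beside 30.5% and 36.4% (median 0.19, against -0.09). The smallest p was that of *Actr5*, an INO80 subunit, at 84.3 CPM against 14.1 CPM (2.59 ± 0.16, adjusted p = 1.3e-10). The 3 relatives of TRIM24 were all called higher at L2C than at MII, beside 47.5% of all genes, but their steps differed. From MII to L1C 1 rose and 1 fell, beside 31.9% and 24.3%, with *Trim28* going from 28.6 to 6.45 CPM. From L1C to L2C 2 rose and 1 fell, beside 44.1% and 38.8%. *Trim66* was near 0 at MII (0.105 CPM). Both relatives tested in KD were higher, beside 33.5%, *Trim33* by 0.69 ± 0.08 (adjusted p = 3.1e-07) and *Trim28* by 0.43 ± 0.08 (adjusted p = 0.00018). At MII *Trim28* (1.70 ± 0.16, adjusted p = 6.3e-08) and *Trim33* (1.28 ± 0.17, adjusted p = 6.1e-06) were higher in IP than in input, as *Trim24* was. These were 2 of the 3 relatives, beside 17.7% of all genes, and *Trim66* was not called. From MII to L2C the ratio changed by -1.58 ± 0.22 for *Trim28* (adjusted p = 4.3e-05) and -0.75 ± 0.22 for *Trim33* (adjusted p = 0.022), beside 9.21% of all genes called lower.

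Of 16 other regulators linked to genome activation, 10 rose and 4 fell from MII to L2C, beside 47.5% and 37.1% of all genes. The smallest p values were those of *Kdm5b*, an H3K4 demethylase (6.33 ± 0.15, adjusted p = 3.1e-13), and *Rarg*, a retinoic acid receptor (5.13 ± 0.19, adjusted p = 7.7e-12). In KD 4 of 6 in the table were higher and 1 lower, beside 33.5% and 37.4% of all genes (median 0.43, against -0.06), and 7 of 10 beyond it were higher and 2 lower, beside 30.5% and 36.4% (median 0.34, against -0.09). *Nr5a2*, an orphan nuclear receptor (0.84 ± 0.06, adjusted p = 1.4e-09), and *Tfap2c* (1.23 ± 0.09, adjusted p = 1.8e-09) were among the higher, while *Hsf1*, the heat shock factor, was lower (-0.89 ± 0.11, adjusted p = 4.6e-06). *Tfap2c* was lower in IP than in input at all 3 stages, by -1.77 ± 0.15 at MII.

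**Figure D4:**
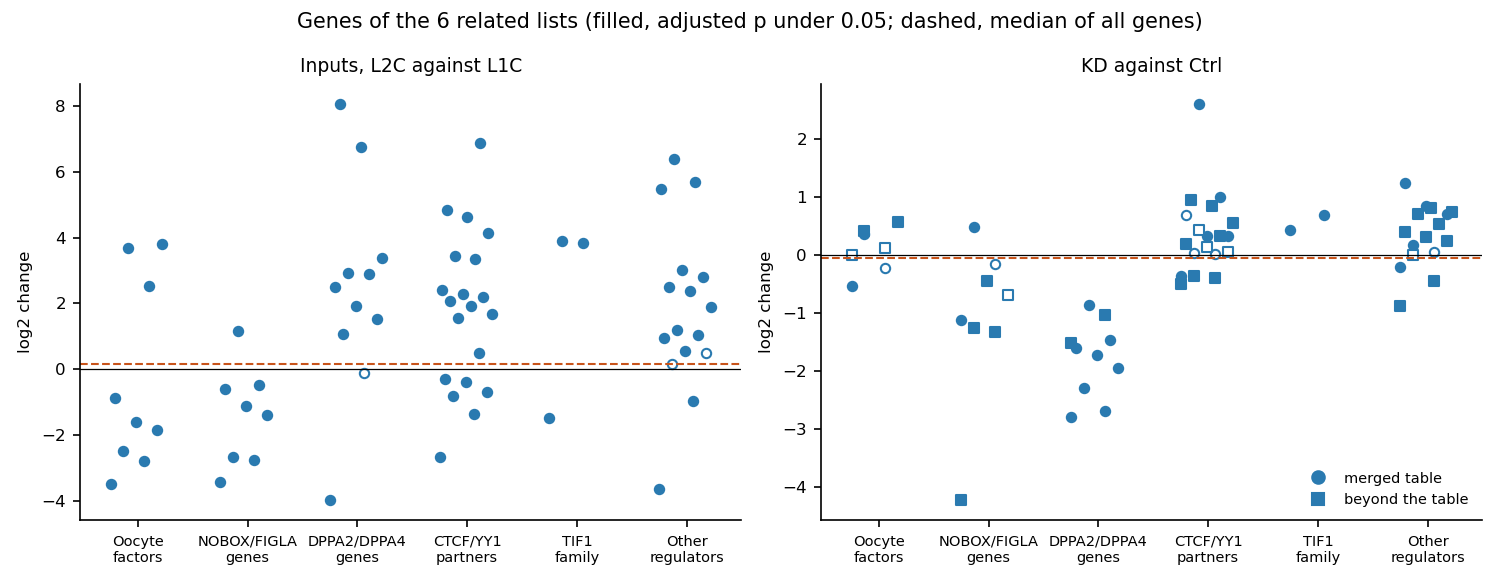
Log2 change of each tested gene of the 6 lists from L1C to L2C in inputs (left) and in KD against Ctrl (right, circles for the merged table and squares for genes beyond it), filled where the adjusted p was under 0.05, with the median of all genes dashed (0.17 on the left and -0.06 for the merged table on the right). The DPPA2 and DPPA4 genes lie mostly above 0 on the left and all below 0 on the right.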

How the data were processed

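SLIM-seq of MII oocytes, L1C and L2C embryos (18 libraries) and RNA-seq of Ythdc1 KD and Ctrl L2C embryos (6 libraries) were grouped by their labels, with 3 libraries per group. For SLIM-seq the authors deposited estimated counts and TPM from kallisto, with the whole span of each gene, introns included, as 1 target, so unspliced RNA and overlapping genes add to a gene's value. The estimated counts were rounded to whole numbers. TPM served only for an order of levels. For KD and Ctrl the authors deposited counts over exons from featureCounts after Trimmomatic and HISAT2 on GRCm38 (mm10), with no strand setting given. The version of kallisto is not given in the sources used here. The merged KD table holds 25739 of 55471 genes. For the others the separate count files were used without KD replicate 3.

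Counts were tested with the quasi-likelihood test of edgeR 4.0.16 in R 4.3.3, with TMM scaling, filterByExpr and Benjamini-Hochberg adjustment over all genes tested, and a gene was called at an adjusted p under 0.05. RNA was compared over the 9 inputs, IP with input over the 18 libraries, and changes of IP/input as interactions. CPM is on the TMM scale of each fit. Alternatives were DESeq2 1.42.0, scaling by library size alone, keeping genes of low counts, a replicate block, only the groups compared, a log2 change above 1, the study's thresholds and leaving out each library. The fit of all 18 libraries for RNA was added after seeing the data. The scripts were tested on data simulated with known changes. Of 100 changes of 1 on the log2 scale, 33 were found for the IP change (L1C against MII). The number was 67 for IP against input at L1C and 78 for RNA at L1C against MII. Of 100 changes of 2, 91, 97 and 99 were found. An IP change that was not called can therefore be a change of 1 that the test missed. The depth was 11107421 to 39739950 estimated counts per SLIM-seq library. Floors of 3 counts cover counting error only.

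The text names the 10 regulators, Ythdc1, per list and comparison the 2 called genes with the smallest p and a mean of at least 10 counts (a selection of these is printed), and per regulator the 2 nearest protein-coding genes with a mean of at least 5 CPM. The members and lists were chosen with earlier results of these data known.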

Additional observations from a re-analysis of the deposited data

Results flagged for a closer look

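The ratio of IP to input differed between stages, by the interaction test of edgeR over all genes, in 8 results. From MII to L1C it was lower for *Dppa2* (-1.21) and *Trim24* (-1.25). From L1C to L2C it was higher for *Yy1* (1.14), a call that 1 library could end. From MII to L2C it was lower for *Dppa2* (-1.21), *Dppa4* (-1.38), *Trim24* (-1.03) and *Nobox* (-1.09) and higher for *Yy1* (1.66). The MII value of *Dppa4* rests on 3 to 13 counts per input, and the difference was no longer called without MII input replicate 2 (-1.0). These comparisons share libraries, so the results are not independent of each other.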

How the results depend on the processing

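Of 59 calls of the regulators, 51 were kept in each other fit and with each library left out, and none reversed. Of 40 results not called, 10 were called in at least 1 other fit. Of 930 counts of list genes under alternatives, 839 were within 1.5 times the count reported, and 1550 of 1621 values of named list genes and *Ythdc1* kept their direction and side of the threshold, with 0 reversed. With a log2 change above 1 as well, the number of regulators called was 4 for RNA at L1C against MII and 3, 0 and 1 for IP at MII, L1C and L2C. With the study's threshold it was 1 in the merged KD table and 0 beyond it. With no filter on low counts the IP change from MII to L1C had 4. The IP change from L1C to L2C had 0 with a replicate block and 0 with only the groups compared.

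With 1 library left out, the number called was 8 for RNA at L1C against MII, 7 to 9 at L2C against L1C and 9 to 10 at L2C against MII. For IP it was 5 to 6 at MII, 4 to 6 at L1C and 5 at L2C. For the IP change it was 2 to 3, 0 to 1 and 4 to 5 (L1C against MII, L2C against L1C, L2C against MII), and for KD 2 in the table and 5 beyond it.

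Results that turned sign were not called as reported. RNA of *Nfyc* from L1C to L2C was -0.23 in the 18-library fit, -0.01 with no filter, -0.07 with only the groups compared and -0.07 to 0.12 with a library left out. With library size alone, *Nfyc* was at 0.02 in IP at MII and -0.05 in KD, and *Nfya* at 0.00 in IP at L2C. For the IP change from L1C to L2C, *Dppa2* was at -0.03 (DESeq2), -0.04 (library size), -0.05 (no filter), -0.03 (replicate block) and -0.17 (only the groups compared), and *Nfyc* at -0.02, -0.02, -0.01 and -0.16 in the same fits without the block. For that from MII to L2C, *Ctcf* was at -0.07 (DESeq2), -0.05 (no filter) and -0.16 (only the groups compared). With a library left out, IP at L1C ran from -0.19 to 0.56 for *Figla* and -0.01 to 0.16 for *Nfyc*, and IP at L2C from -0.02 to 0.18 for *Dppa4*. The IP change from L1C to L2C ran from -0.22 to 0.12 for *Dppa2* and -0.09 to 0.08 for *Nfyc*, and that from MII to L2C from -0.08 to 0.07 for *Ctcf* and -0.17 to 0.06 for *Nfyb*. The cause was not tested.

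Same-numbered samples had correlations of -0.154 to 0.133 in their deviations from group means, and the study, by whose account IP and input came from the same batches of RNA, does not tie a replicate number to a batch. Whether same-numbered libraries share a batch is therefore not known, and the fits without the block are the ones reported. With the block *Figla* at MII (-0.90), *Nobox* at L1C (-0.49), *Yy1* at L1C (0.70) and the step of *Yy1* from L1C to L2C (1.14) were not called, and no other call of the regulators changed. The replicate block moved the genes called for the IP change from 1609 to 1067 (L1C against MII) and from 2079 to 1168 (L2C against L1C). Depth limits *Dppa4* and *Yy1* at MII and *Figla* and *Nobox* in KD.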

Other observations

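Counts over gene spans in L2C inputs and over exons in Ctrl L2C embryos placed some regulators at different levels. *Yy1* was at 10.5 CPM in L2C inputs and 153 CPM in Ctrl over the whole annotation. *Ctcf* was at 40.8 and 209 CPM. *Nobox* was at 42.4 and 3.15 CPM. The tables were made and scaled separately from different embryos, and the differences were not tested.

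*Ythdc1* itself, as RNA in the inputs, differed by -0.10 ± 0.18 between L1C and MII (adjusted p = 0.64) and rose by 0.78 ± 0.17 from L1C to L2C (adjusted p = 0.00084, edgeR). It was higher in IP than in input at each stage, by 0.78 ± 0.17, 0.88 ± 0.17 and 1.24 ± 0.17, and no change between stages passed the test.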
